A study of Mus musculus with 121 samples.

Results

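The erythropoietin receptor and the JAK-STAT5 pathway behind it were followed in mouse erythroid cells from which the transcription factor YY1 can be removed. The 9 genes were chosen by their place in the pathway: the receptor Epor, the kinase Jak2, the transcription factors Stat5a and Stat5b, the feedback inhibitors Cish, Socs1, Socs2 and Socs3, and the kinase gene Pim1. The choice was made with earlier results of these data known. The members are 9 of 55351 gene symbols in the RNA-seq time series, of 22493 in a table of untreated lines and of 25208 in TT-seq. All 9 passed the filter on low counts in each of 3 count tables. Erythropoietin binds a receptor that has no kinase of its own and relies on JAK2 attached to its inner side. JAK2 phosphorylates the receptor and STAT5, which moves to the nucleus and switches on genes for survival as well as genes of the CIS and SOCS family, whose products damp the same receptor. In erythroid progenitors this route keeps cells alive until they mature.

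The cells were G1E-ER4, an erythroid line derived from mouse embryonic stem cells that lacks its own GATA1 and carries a GATA1 that a hormone can switch on. In the YY1-AID subline, YY1 carries an auxin-inducible degron, so that auxin in the medium leads to breakdown of the protein, whose level is not part of the data used here. RNA-seq of asynchronous cells of this subline covered 0, 4, 24 and 48 h of auxin, with 3 libraries each. A separate RNA-seq table held 2 libraries each of parental cells, of the YY1-AID subline and of a further line labelled YY1-AID subline3, all without auxin. TT-seq, which sequences RNA labelled during a 5 min pulse of 4-thiouridine and so reads out recent transcription, covered the YY1-AID subline without auxin and after 4 h of it, with 3 libraries each. The labels give no hormone treatment, no untreated cells kept for 24 or 48 h, and no auxin-treated parental cells, so time in culture and auxin itself cannot be told apart from loss of YY1. The time course and TT-seq come from a single subline. The labels do not say whether replicates were separate cultures, so the p-values measure the spread between libraries, which may be technical.

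Depth was 25.1 to 26.2 M gene counts per library in the time course, 35.2 to 44.9 M in the untreated lines and 30.2 to 53.5 M in TT-seq. Erythroid markers were present, and 9 of 11 were listed and tested in the time course. They summed to 4614 to 5000 CPM at 0 h, 3956 to 4207 CPM at 24 h and 5116 to 6237 CPM at 48 h. Gata1 alone ranged from 2092 to 3469 CPM over the 12 libraries, Tfrc from 435 to 730 CPM and Slc4a1 from 2.08 to 27 CPM. Tfrc ran against the higher sum at 48 h, with a log2 fold change of −0.56 ± 0.08 (edgeR adjusted p = 7.58e-05). RNA of the introduced GATA1 was not told apart from that of Gata1, so the sum may not follow erythroid state. Myeloid markers summed to at most 4.48 CPM, and 3 of 4 pluripotency markers had no counts. Mast cell markers reached at most 0.856 CPM and lymphoid markers 9.13 CPM. The 6 megakaryocyte markers summed to 38.2 to 52.5 CPM at 0 h and to 211 to 250 CPM at 48 h. Over the 12 libraries Itga2b ranged from 26.3 to 212 CPM and Pf4 from 9.79 to 21.5 CPM, and Gp1bb had no counts. Progenitor markers summed to 891 to 1043 CPM at 0 h and 640 to 743 CPM at 48 h. The erythroid, megakaryocyte and progenitor sums did not overlap between 0 and 48 h. Nor did the low myeloid sums (3.51 to 4.48 CPM at 0 h, 1.71 to 2.72 CPM at 48 h) and lymphoid sums (7.97 to 9.13 and 2.09 to 2.64 CPM). These sums moved alongside the member changes below, and their part in them was not tested. Yy1 mRNA, which the degron does not act on, was not called in any comparison of the fits without a replicate term (log2 fold change 0.11 ± 0.09 at 4 h, edgeR adjusted p = 0.516). In TT-seq Yy1 was higher in all 3 pairs of the same replicate number, at 0.16 ± 0.08 (adjusted p = 0.276), and was called with the number as a block (0.16 ± 0.04, adjusted p = 0.000176).

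Promoter sequence was found for 8 of the 9 genes among 32851 windows that run from 250 bases before to 50 after a start site (RefSeq, GRCm38.p6), and 3 are shown because they hold letters that STAT5 or GATA factors are known to prefer. The letters TTCNNNGAA (a STAT5 motif, the same on both strands) occur in 8.3% of all windows, AGATAA (a motif of the GATA factors, read on both strands) in 11.2% and GCCATNTT (a YY1 motif, read on both strands) in 6.05%. Capitals mark the match, and each sequence reads 5′ to 3′ along the gene. The Epor stretch is chr9:21963577-21963826 on the minus strand, 250 bases that end at the base before the start site.
Epor: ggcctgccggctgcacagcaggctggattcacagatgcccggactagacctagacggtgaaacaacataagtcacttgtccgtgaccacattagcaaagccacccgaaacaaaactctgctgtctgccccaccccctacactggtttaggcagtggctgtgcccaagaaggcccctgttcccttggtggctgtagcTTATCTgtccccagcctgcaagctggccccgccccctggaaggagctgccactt
The Socs3 stretch is chr11:117969367-117969616 on the minus strand, again the 250 bases before the start site.
Socs3: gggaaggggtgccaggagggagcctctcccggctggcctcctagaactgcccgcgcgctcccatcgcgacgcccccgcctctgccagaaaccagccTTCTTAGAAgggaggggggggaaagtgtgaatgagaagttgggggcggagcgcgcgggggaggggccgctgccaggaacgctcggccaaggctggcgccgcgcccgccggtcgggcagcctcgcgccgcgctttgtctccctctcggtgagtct
The Cish stretch is chr9:107296649-107296678 on the plus strand, 10 bases before and 20 after the start site.
Cish: ccgcccagttTTCCTGGAAagTTCTTGGAA
Epor holds 1 GATA match, on the opposite strand, at bases −54 to −49 from the start site. Socs3 holds 1 STAT5 match at bases −154 to −146. Cish, long known as a direct STAT5 target, holds 2 STAT5 matches side by side at bases 1 to 9 and 12 to 20 of the transcript, an arrangement with 2 or more matches in 0.457% of all windows. None of these 3 motifs was found in the windows of Jak2, Stat5a, Stat5b, Socs1 or Pim1, and no YY1 match was found in any member's window. A match is a description of the letters and shows no binding.

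Expression is given as CPM (counts scaled to a fixed library size after TMM normalisation), and differences as log2 fold changes ± SE from an edgeR quasi-likelihood fit. A gene was called where its p-value, adjusted by Benjamini-Hochberg over all genes of the table, was under 0.05. Levels are compared within a gene only, since CPM is not corrected for transcript length. In bulk RNA, fewer cells that express a gene and less RNA per cell cannot be told apart.

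After 48 h of auxin all 9 genes were called against 0 h, and none of their groups overlapped. Jak2, Socs2, Socs3 and Pim1 were higher, and Epor, Stat5a, Stat5b, Cish and Socs1 were lower. At 24 h, 2 were higher (Socs2 and Socs3) and 3 lower (Epor, Stat5a and Stat5b), and at 4 h only Socs3 was called, as higher. These counts stand against a wide background: 3.14% of 15157 genes were called higher and 4.14% lower at 4 h, 21.5% and 21.5% at 24 h, and 24.9% and 24.6% at 48 h. The median log2 fold change of the 9 was −0.09, −0.20 and −0.27 at 4, 24 and 48 h, beside 0.01, 0.03 and 0.03 over all genes. Groups did not overlap for 4, 6 and 9 members at these times, beside 27.2%, 52.3% and 57.3% of all genes. With library totals in place of TMM the median of all genes shifted up by 0.16 at 24 h and 0.17 at 48 h, and the calls over all genes went from 476 higher and 627 lower to 720 and 525 at 4 h, from 3253 higher and 3258 lower to 4975 and 2019 at 24 h, and from 3777 and 3733 to 5493 and 2473 at 48 h. Members that lost their call under that scaling are named below.

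**Figure D1:**
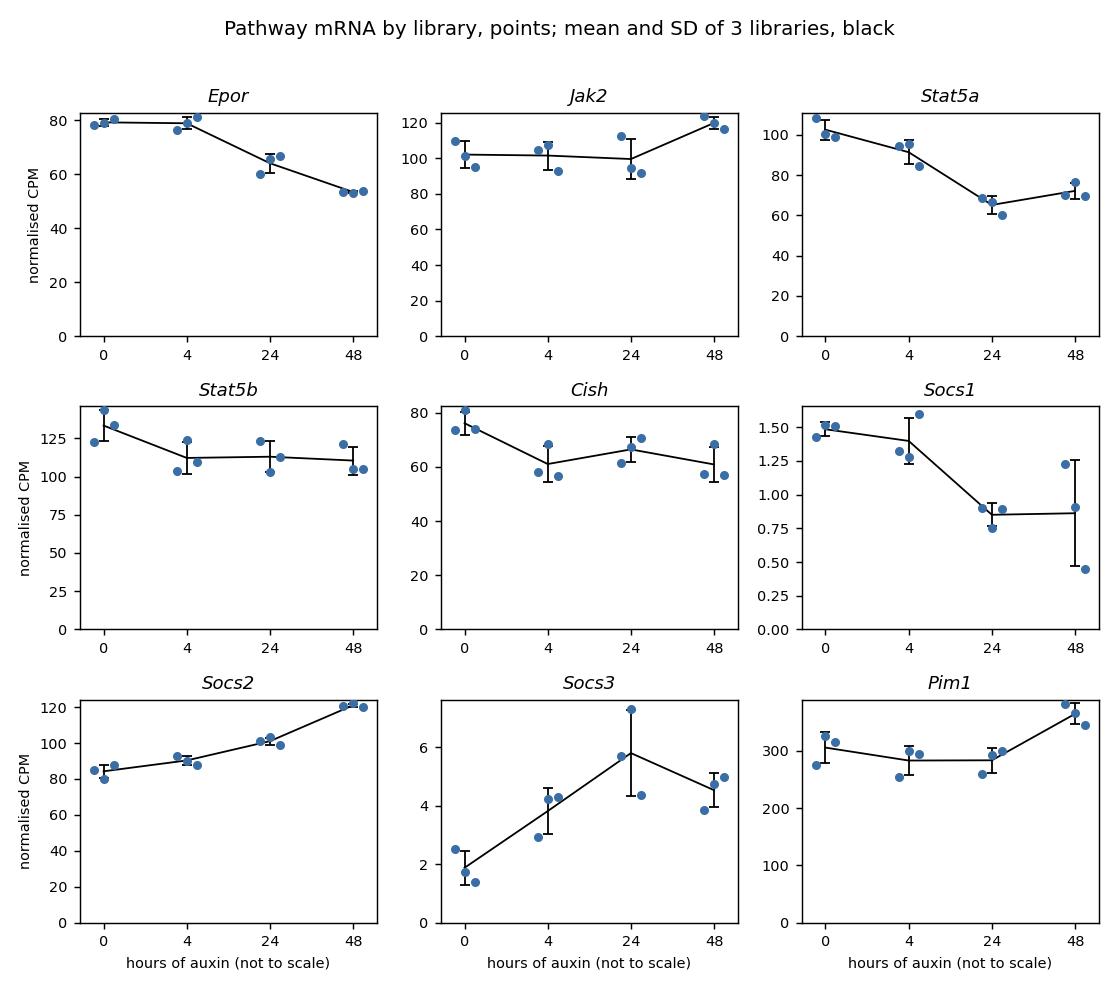
Normalised CPM of each of the 9 genes (y axis, from 0) in the 12 RNA-seq libraries at 0, 4, 24 and 48 h of auxin (x axis, evenly spaced). Blue points are libraries, black lines join the means and bars are SD of 3 libraries. Epor declines to 52.9 to 53.9 CPM at 48 h and Socs2 climbs to 120.3 to 122 CPM, with little spread within a time.

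Epor encodes the erythropoietin receptor itself. It stood at 78.3, 78.8 and 80.5 CPM at 0 h and at 76.4, 79.1 and 81.0 CPM at 4 h. It then measured 60.1, 65.5 and 66.6 CPM at 24 h and 53.4, 52.9 and 53.9 CPM at 48 h. The first 2 times overlapped, every 24 h library lay below them, and every 48 h library lay below every 24 h library. Epor fell by 0.31 ± 0.06 at 24 h (adjusted p = 0.00077) and by 0.57 ± 0.06 at 48 h (adjusted p = 3.19e-06) against 0 h. The steps from 4 to 24 h (−0.30 ± 0.06, adjusted p = 0.00131) and from 24 to 48 h (−0.26 ± 0.06, adjusted p = 0.0184) were called as well. The call at 24 h was lost with library totals (−0.15, adjusted p = 0.0559), and that of the last step without replicate 2 or 3 at 24 h or replicate 1 at 48 h (adjusted p = 0.0685, adjusted p = 0.0522 and adjusted p = 0.0546).

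Jak2, the kinase bound to the receptor, moved late. Its libraries gave 109.9, 101 and 94.9 CPM at 0 h, 105, 107 and 92.5 CPM at 4 h, 112, 94.4 and 91.8 CPM at 24 h, and 123, 119.5 and 116 CPM at 48 h. The first 3 times overlapped, and the 48 h libraries were the highest of the 12. Jak2 rose by 0.23 ± 0.08 at 48 h (adjusted p = 0.0359), a call that held in 1 of the 6 fits that left out a library of these groups. It was lost without 0 h replicate 2 or 3 or any 48 h library (lowest 0.17, highest adjusted p = 0.17).

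Stat5a and Stat5b encode near-identical transcription factors and lie next to each other in the genome, so reads in shared sequence could be split between them by the authors' counting, and both values are uncertain to that extent. Stat5a gave 108, 100.5 and 99.0 CPM at 0 h, 94.4, 95.3 and 84.5 CPM at 4 h, 68.7, 66.9 and 60.1 CPM at 24 h, and 70.0, 76.7 and 69.8 CPM at 48 h. All 4 h libraries lay below the 0 h libraries, and the 24 and 48 h libraries lay lower still. Stat5a fell by 0.65 ± 0.07 at 24 h (adjusted p = 1.23e-05) and by 0.51 ± 0.07 at 48 h (adjusted p = 6.58e-05). At 4 h the difference was −0.17 ± 0.07 (adjusted p = 0.197). The step from 4 to 24 h was called (−0.49 ± 0.07, adjusted p = 0.000234), and that from 24 to 48 h was not (0.15 ± 0.07, adjusted p = 0.282), although the groups did not overlap.

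Stat5b gave 123, 144 and 134 CPM at 0 h, 103, 124 and 109 CPM at 4 h, 123, 103 and 113 CPM at 24 h, and 121, 105 and 105 CPM at 48 h. Its difference was already −0.25 ± 0.09 at 4 h (adjusted p = 0.116), −0.24 ± 0.09 at 24 h (adjusted p = 0.0454) and −0.27 ± 0.09 at 48 h (adjusted p = 0.0224). Only the last 2 passed, and at 24 h the groups touched, since 1 library of each had 123 CPM. The 24 h call was lost in 4 of 6 fits without a library (0 h or 24 h replicates 2 and 3), and the 48 h call in 3 of 6 (0 h replicate 2 and 48 h replicates 2 and 3, highest adjusted p = 0.0814). Library totals ended both (−0.08 and −0.10, adjusted p = 0.513 and adjusted p = 0.392). The 24 h call was also lost with 2 groups only (adjusted p = 0.0537) and with the replicate block (adjusted p = 0.056).

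The balance of the pair was read as the log2 ratio of Stat5a to Stat5b counts within a library, in which library size cancels. The ratio was −0.38 ± 0.174 (SD, n = 3) at 0 h, −0.29 ± 0.141 at 4 h, −0.79 ± 0.150 at 24 h and −0.61 ± 0.168 at 48 h. Thus the 24 h libraries lay below all 0 h and all 4 h libraries, while the 48 h group overlapped both 0 h and 24 h. A two-sided exact permutation test gave p = 0.1 for 24 h against 0 h, the smallest that 3 against 3 allows, and p = 0.2 for 48 h against 0 h. Over the 9 comparisons of the ratio the Benjamini-Hochberg adjusted p of these exact permutation tests was 0.45 for both, and none can pass 0.05 with 3 libraries a group. As a value of counts not corrected for length, the ratio describes change and not the relative amount of the proteins.

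Cish encodes a STAT5-induced inhibitor that binds the receptor. Its libraries read 73.5, 81.0 and 74.0 CPM at 0 h, 57.9, 68.6 and 56.6 CPM at 4 h, 61.6, 67.2 and 70.6 CPM at 24 h, and 57.4, 68.3 and 57.0 CPM at 48 h. Every auxin library lay below every 0 h library. Cish fell by 0.32 ± 0.09 at 48 h (adjusted p = 0.0108). The 4 h value was as large (−0.32 ± 0.09) but missed the threshold (adjusted p = 0.0562), and DESeq2 put it past (adjusted p = 0.0112). At 24 h it was −0.20 ± 0.09 (adjusted p = 0.106). With library totals the 48 h call was lost (−0.15, adjusted p = 0.162).

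Socs1 and Socs3, whose proteins block JAK2 directly, were both scarce and moved in opposite directions. Socs1 gave 1.43, 1.52 and 1.51 CPM at 0 h, 1.32, 1.28 and 1.596 CPM at 4 h, 0.903, 0.752 and 0.896 CPM at 24 h, and 1.23, 0.91 and 0.447 CPM at 48 h, from 12 to 40 counts per library. The 24 and 48 h libraries were all below those at 0 h, and the 48 h libraries spread widely. The 24 h difference of −0.80 ± 0.31 narrowly missed the threshold (adjusted p = 0.0504). Socs1 fell by 0.78 ± 0.31 at 48 h (adjusted p = 0.0491), a call lost in 5 of 6 fits without a library (all but that without 48 h replicate 1). It was also lost under each of the 5 other settings: DESeq2 (adjusted p = 0.0799), no filter (adjusted p = 0.104), library totals (adjusted p = 0.114), 2 groups only (adjusted p = 0.103) and the replicate block (adjusted p = 0.0563). Without 48 h replicate 3 the difference was −0.47 (adjusted p = 0.172).

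Socs3 gave 2.53, 1.72 and 1.39 CPM at 0 h, 2.92, 4.23 and 4.31 CPM at 4 h, 5.72, 7.33 and 4.37 CPM at 24 h, and 3.87, 4.74 and 5.00 CPM at 48 h, from 34 to 195 counts. Every auxin library was above every 0 h library. Socs3 rose by 1.02 ± 0.26 at 4 h (adjusted p = 0.0317), by 1.62 ± 0.26 at 24 h (adjusted p = 0.000227) and by 1.27 ± 0.26 at 48 h (adjusted p = 0.00108), the largest changes among the 9 genes at each time. The 4 h call was lost in 4 of 6 fits without a library (0 h and 4 h replicates 2 and 3, with values down to 0.83 and an adjusted p up to 0.116). Those at 24 and 48 h held in all 6. Neither later step was called (0.60 ± 0.24, adjusted p = 0.0726, and −0.36 ± 0.24, adjusted p = 0.447).

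Socs2, a family member that also limits growth hormone signalling and is itself a STAT5 target, climbed in steps. It gave 84.9, 80.2 and 87.7 CPM at 0 h, 92.8, 90.1 and 88.0 CPM at 4 h, 101, 103 and 99.1 CPM at 24 h, and 121, 122 and 120.3 CPM at 48 h. No group overlapped another. Socs2 rose by 0.26 ± 0.05 at 24 h (adjusted p = 0.00124) and by 0.52 ± 0.05 at 48 h (adjusted p = 2.97e-06), while the value at 4 h was 0.10 ± 0.05 (adjusted p = 0.297). The steps from 4 to 24 h (0.16 ± 0.05, adjusted p = 0.0283) and from 24 to 48 h (0.26 ± 0.05, adjusted p = 0.012) were called. The first of these was lost without 4 h replicate 2 or 3 or 24 h replicate 1 or 2 (highest adjusted p = 0.0878), and with no filter on low counts (adjusted p = 0.188).

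Pim1 encodes a survival kinase that STAT5 induces. The gene overlaps a predicted gene, as Socs2 does, and without a known strand setting reads of the overlap cannot be told apart. Its libraries gave 276, 326 and 316 CPM at 0 h, 254, 300.3 and 295 CPM at 4 h, 259, 292 and 299.7 CPM at 24 h, and 382, 366 and 346 CPM at 48 h. The first 3 times overlapped and the 48 h libraries were above them all. Pim1 rose by 0.25 ± 0.08 at 48 h (adjusted p = 0.0207) and by 0.36 ± 0.08 from 24 to 48 h (adjusted p = 0.0226). The first call was lost in 3 of 6 fits without a library (0 h replicate 1 and 48 h replicates 1 and 2, lowest 0.17, highest adjusted p = 0.125). The second was lost in 4 of 6 (24 h and 48 h replicates 1 and 2, lowest 0.30, highest adjusted p = 0.0973). At 4 and 24 h the differences were −0.11 ± 0.08 and −0.11 ± 0.08 (adjusted p = 0.495 and adjusted p = 0.315).

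Between successive auxin times, 1 member was called higher (Socs2) and 2 lower (Epor and Stat5a) from 4 to 24 h, where 15.9% of all genes were higher and 17.7% lower. With library totals the calls over all genes at this step went from 2408 higher and 2685 lower to 3763 and 1659, with a median shift of 0.13, and 3 members were then higher (Cish and Socs3 besides Socs2). From 24 to 48 h, 2 were called higher (Socs2 and Pim1) and 1 lower (Epor), where 3.03% of all genes were higher and 2.84% lower. Epor and Socs2 were thus the members called in both steps. Groups did not overlap for 5 members from 4 to 24 h and 5 from 24 to 48 h, beside 46.2% and 23.7% of all genes. The comparisons with 0 h share the same 3 libraries, and those of successive times share the library group between them.

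**Figure D2:**
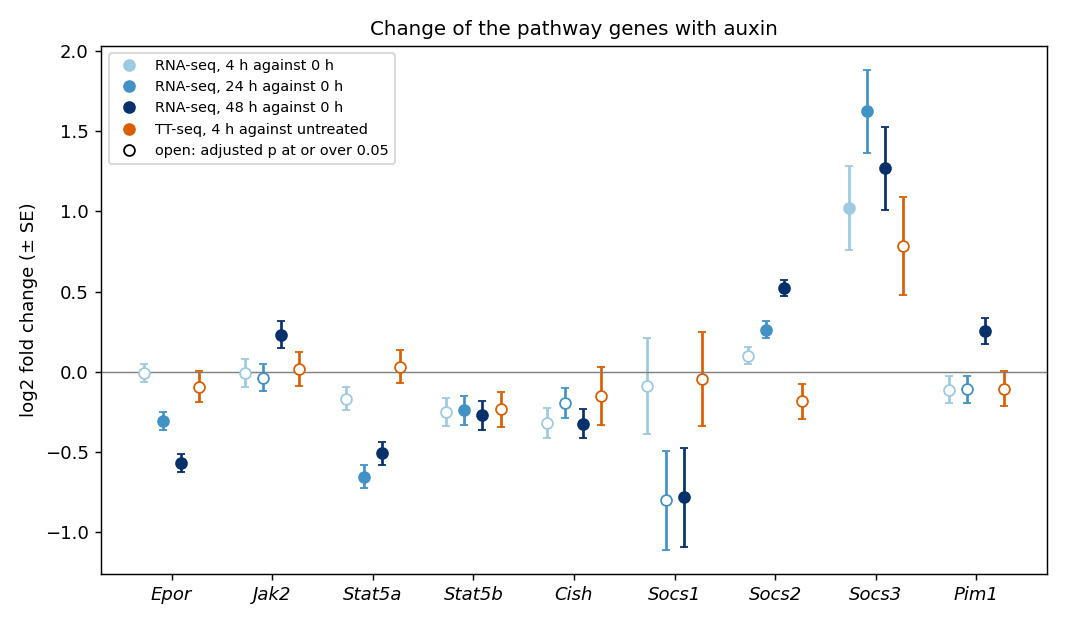
Log2 fold changes (y axis) with SE bars for the 9 genes (x axis) at 4, 24 and 48 h of auxin against 0 h in RNA-seq (blue) and at 4 h against untreated cells in TT-seq (orange), where filled points have an adjusted p under 0.05. Socs3 is the highest point set at every time, from 1.02 to 1.62 in RNA-seq, and Epor and Stat5a reach −0.57 and −0.65.

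Labelled RNA at 4 h was used to ask which members had changed in recent transcription. No member was called in TT-seq, where 2.11% of 11218 genes were higher and 7.09% lower (edgeR). DESeq2 called no member either, beside 1305 genes called. In edgeR 1 member had an unadjusted p under 0.05, beside 2671 of 11218 genes. TT-seq libraries of the same replicate number deviated together from their group means (correlations of 0.40 to 0.66, against −0.51 to −0.09 for different numbers), which pairs them. With the replicate number as a block, 1 member was higher (Socs3) and 4 were lower (Stat5b, Cish, Socs2 and Pim1), beside 22.7% of all genes higher and 25.3% lower in that fit. The members' count in the blocked fit is thus 5 of 9, beside 5374 of 11218 genes. Spread is moderated across genes in edgeR, so a blocked p-value does not rest on a gene's own pairs alone. Groups did not overlap for 2 members in TT-seq, beside 29.3% of all genes.

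Among the called members of the paired fit, Socs3 gave 1.06, 1.10 and 1.17 CPM without auxin and 1.498, 1.402 and 2.85 CPM with it, in replicates 1, 2 and 3. All auxin libraries were above all untreated libraries, and replicate 3 was far above the others. The difference was 0.79 ± 0.31 (adjusted p = 0.164), and 0.73 ± 0.21 with the block (adjusted p = 0.00191). Without auxin replicate 3 it was 0.38 (adjusted p = 0.447, no block). Within the pairs the log2 differences were 0.50, 0.35 and 1.28.

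Stat5b gave 112, 134 and 125 CPM without auxin and 91.4, 114 and 109 CPM with it. It was lower in each of the 3 pairs, with log2 differences of −0.30, −0.23 and −0.19 (−0.24 ± 0.04 with the block, adjusted p = 1.13e-07, against −0.23 ± 0.11 and adjusted p = 0.237 without). The RNA-seq difference at the same time was −0.25 ± 0.09. Socs2 gave 27.2, 22.1 and 23.2 CPM without auxin and 22.0, 19.8 and 21.9 CPM with it, lower in each pair (−0.18 ± 0.06 with the block, adjusted p = 0.0117), and without the block at −0.18 ± 0.11 (adjusted p = 0.352). In RNA-seq at 4 h Socs2 had the opposite sign (0.10 ± 0.05, adjusted p = 0.297), and the difference between the assays was not tested.

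Pim1 was at 177, 205 and 165 CPM and at 167, 188 and 154 CPM with auxin, again lower in each pair (−0.10 ± 0.04 with the block, adjusted p = 0.0146, and adjusted p = 0.637 without). For Cish the libraries gave 38.1, 61.3 and 48.1 CPM without auxin and 38.5, 53.3 and 41.2 CPM with it. Cish was lower in 2 of 3 pairs, with log2 differences of 0.01, −0.20 and −0.22. It was at −0.15 ± 0.05 with the block (adjusted p = 0.00616), where the SE draws on the spread of other genes too. Without the block it was at −0.15 ± 0.18 (adjusted p = 0.692). The other 4 genes were not called in either fit. Epor gave 15.5, 16.1 and 15.8 CPM without auxin and 15.97, 14.4 and 14.1 CPM with it (−0.09 ± 0.10), Stat5a differed by 0.03 ± 0.10 and Jak2 by 0.02 ± 0.10. Socs1 rested on 12 to 21 counts per library and differed by −0.04 ± 0.29.

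Counts of Drosophila spike-in RNA were added to each TT-seq sample as a reference that does not depend on the mouse genes. With library sizes taken from the spike-in, no member was called without the block (1 gene of 11218 was). With both the spike-in and the block Socs3 (0.69, adjusted p = 0.00579) and Stat5b (−0.27, adjusted p = 0.000322) were called, beside 3539 of 11218 genes. Mouse counts per spike-in count ranged from 43.1 to 115 among untreated libraries and from 43.1 to 99.3 with auxin. The spread between replicate numbers was larger than any difference between the groups.

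**Figure D3:**
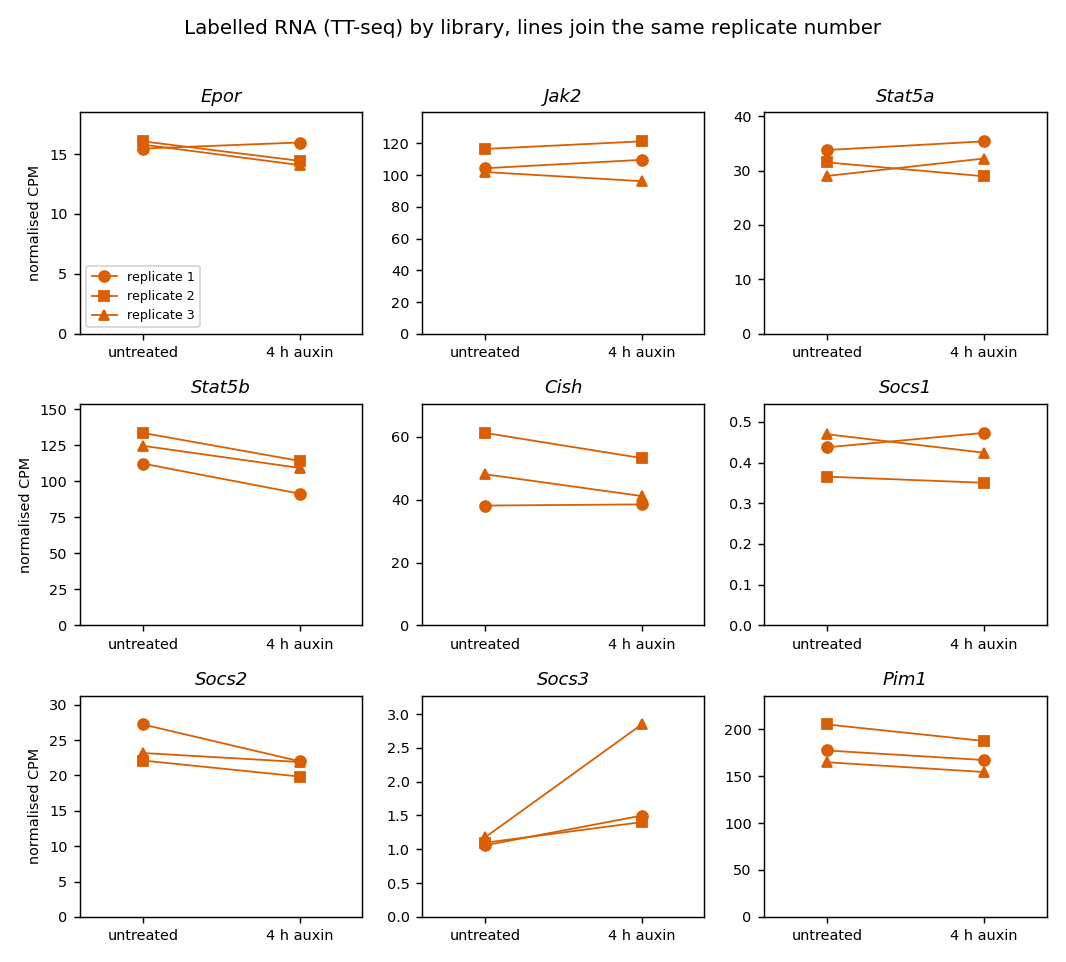
Normalised CPM in TT-seq (y axis, from 0) for the 9 genes in untreated cells and after 4 h of auxin (x axis), where a marker is a library and a line joins libraries of the same replicate number. Stat5b, Socs2 and Pim1 go down in all 3 pairs, and Socs3 goes up in all 3, to 2.85 CPM in replicate 3 and to 1.498 and 1.402 CPM in the others.

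Untreated lines were compared to see whether the members differed before any auxin. No member was called between any pair of lines. For the YY1-AID subline against parental cells 0% of 10892 genes were called in either direction, as for subline3 against parental cells, and for subline3 against the subline 0.0826% were higher and 0% lower (edgeR). At an unadjusted p under 0.05 there were 0, 3 and 0 members in these comparisons, among 557, 534 and 572 genes. DESeq2 called no member and 176, 130 and 189 genes. Libraries of the same number deviated together (correlations of 0.63 to 0.74), and what the numbers stand for is not given in the labels. Jak2 shows it: parental, subline and subline3 cells had 49.9, 54.6 and 78.5 CPM in replicate 1, but 98.3, 103 and 115 CPM in replicate 2. For Jak2, Stat5a and Stat5b every replicate 1 library was below every replicate 2 library. Epor separated the other way, at 78.0, 96.3 and 66.2 CPM in replicate 1 and 59.5, 62.6 and 57.2 CPM in replicate 2.

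Cish and Pim1 had differences that the replicate block brought past the threshold. Cish gave 37.1 and 32.8 CPM in parental cells, 50.8 and 41.9 CPM in the subline, and 57.0 and 63.9 CPM in subline3. Subline3 was above parental cells by 0.79 ± 0.19 (adjusted p = 0.555), with 0.62 and 0.96 within replicates 1 and 2, and by 0.80 ± 0.13 with the replicate block (adjusted p = 0.00969). Pim1 gave 113 and 145 CPM in parental cells, 124 and 189 CPM in the subline, and 198 and 246 CPM in subline3. Both subline3 libraries exceeded the others. The difference from parental cells was 0.79 ± 0.28 (adjusted p = 0.927), with 0.82 and 0.76 within the replicates, and 0.79 ± 0.11 with the block (adjusted p = 0.00389). Against the subline it was 0.51 ± 0.28 (adjusted p = 1), or 0.53 ± 0.11 with the block (adjusted p = 0.0218).

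In the blocked fits 2 members (Cish and Pim1) were higher in subline3 than in parental cells, beside 4.2% of genes higher and 2.05% lower. Only Pim1 was called higher than in the subline (4.43% higher and 1.74% lower over all genes), and no member was called between the subline and parental cells (1.63% and 2.4%). Socs1 ran the other way, without overlap between any 2 lines, at 1.44 and 0.96 CPM in parental cells, 0.929 and 0.651 CPM in the subline, and 0.555 and 0.561 CPM in subline3 (−1.10 ± 0.42 for subline3 against parental cells, adjusted p = 0.98, on 20 to 61 counts). Groups did not overlap for 3 members between the subline and parental cells, 5 between subline3 and parental cells, and 4 between the sublines. The shares over all genes were 21.3%, 27.4% and 26.9%. Erythroid markers summed to 1953 to 2667 CPM in parental cells, 4058 to 4721 CPM in the subline and 4026 to 4656 CPM in subline3. Within these sums Gata1 ranged from 816 to 2450 CPM and Hbb-b1 from 73.5 to 1680 CPM over the libraries. Megakaryocyte markers summed to 11.5 to 18.5, 31.6 to 35.7 and 30.6 to 32.5 CPM in these lines, and progenitor markers to 902 to 1108, 619 to 837 and 694 to 816 CPM. For all 3 lists the parental libraries stood apart from both sublines, and the part of these markers in the member values was not tested.

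**Figure D4:**
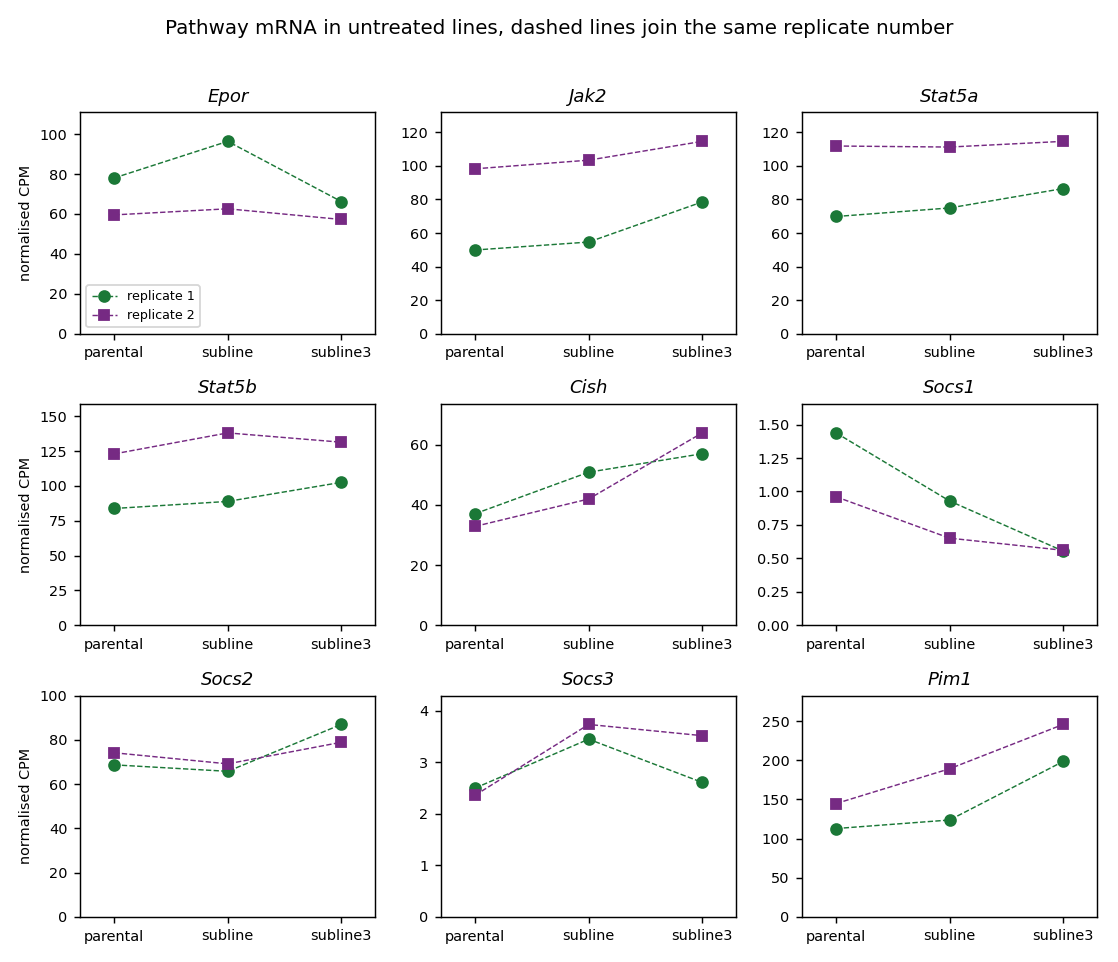
Normalised CPM of the 9 genes (y axis, from 0) in the 3 lines without auxin (x axis: parental, YY1-AID subline, YY1-AID subline3), 2 libraries each, with dashed lines joining libraries of the same replicate number. Jak2, Stat5a and Stat5b separate by replicate number in every line, as does Epor in the opposite direction. Pim1 reads 198 and 246 CPM in subline3 and at most 189 CPM elsewhere.

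The rest of the pathway was described with 77 further genes in 5 lists, of which 67 were tested in the time course. At 4 h 2 were higher and 4 lower, at 24 h 8 and 25, and at 48 h 16 and 24, and the median log2 fold changes were −0.03, −0.14 and −0.04. Over all genes 3.14% were higher and 4.14% lower at 4 h, 21.5% and 21.5% at 24 h, and 24.9% and 24.6% at 48 h. Receptors and ligands of related cytokines (14 listed, 8 tested) had 2 higher and 4 lower genes at 48 h, with a median of −0.47 beside 0.03 over all genes. Tfr2, the transferrin receptor relative that binds EPOR, fell by 0.98 ± 0.10 at 48 h (adjusted p = 2.66e-06). Csf2rb, the shared beta chain of the interleukin-3 and GM-CSF receptors, fell by 0.97 ± 0.12 at 24 h (adjusted p = 4.27e-05) and by 0.82 ± 0.12 at 48 h. Its near copy Csf2rb2 fell by 1.20 ± 0.18 at 24 h, then rose from 24 to 48 h (0.71 ± 0.18, adjusted p = 0.0378) and stood at −0.49 ± 0.18 against 0 h (adjusted p = 0.0365), and reads shared by these copies make both values uncertain. Kit, the stem cell factor receptor, fell by 0.57 ± 0.10 at 24 h (adjusted p = 0.00046). Il6st, the interleukin-6 signal transducer, rose by 1.00 ± 0.21 at 48 h (adjusted p = 0.00124).

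The other JAK and STAT genes had 6 of 7 tested genes higher at 48 h and a median of 0.47. Jak3, the kinase of gamma chain cytokine receptors, rose by 0.99 ± 0.11 at 24 h (adjusted p = 1.77e-05) and by 1.16 ± 0.12 at 48 h (adjusted p = 2.83e-06). Tyk2, a kinase of interferon receptors, rose by 0.36 ± 0.07 and 0.47 ± 0.07 at these times. Jak1 fell at 24 h (−0.23 ± 0.08, adjusted p = 0.0461).

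Among 20 tested adaptors and kinases downstream of the receptor, 2 were higher and 3 lower at 4 h, and 6 and 7 at 48 h. Map2k1, a kinase of the MAP kinase cascade, fell by 0.71 ± 0.14 at 4 h (adjusted p = 0.00697), and Mapk3 fell by 0.38 ± 0.09 at 4 h (adjusted p = 0.022) and by 0.94 ± 0.09 at 48 h (adjusted p = 2.11e-06). Plcg1, a phospholipase recruited to activated receptors, rose by 0.33 ± 0.09 at 4 h (adjusted p = 0.0335) and by 0.82 ± 0.09 at 48 h (adjusted p = 4.46e-06). In TT-seq Plcg1 rose as well (0.49 ± 0.11, adjusted p = 0.027).

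Of 17 other negative regulators, 1 was higher and 5 lower at 48 h. Cul5 and Rnf7, which encode parts of the ubiquitin ligase that SOCS proteins assemble, fell by 0.44 ± 0.08 (adjusted p = 0.000634) and 0.35 ± 0.07 (adjusted p = 0.000809) at 48 h. Sh2b3, the adaptor LNK that restrains JAK2, fell by 0.53 ± 0.11 (adjusted p = 0.00119). In TT-seq Cul5 fell by 0.54 ± 0.09 (adjusted p = 0.0083). Of 15 other STAT5 targets and Pim kinases tested, 8 were lower at 24 h, and 1 was higher and 8 lower at 48 h, with medians of −0.19 and −0.18. Myc, a growth regulator, fell by 0.91 ± 0.07 at 24 h and 0.96 ± 0.07 at 48 h, and Podxl, a sialomucin of erythroid progenitors, by 0.86 ± 0.07 and 1.07 ± 0.07. Ccnd2, a cyclin of G1 phase, fell by 0.63 ± 0.10 at 24 h (adjusted p = 0.000226), and the transferrin receptor Tfrc by 0.56 ± 0.08 at 48 h (adjusted p = 7.58e-05). Kit is also a progenitor marker and Tfrc an erythroid marker of the lists above.

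In TT-seq at 4 h without the block, 2.11% of all genes were higher and 7.09% lower. Of the 66 tested genes of these lists, 1 was higher and 8 were lower. Kit (−0.39 ± 0.09, adjusted p = 0.0278), Csf2rb (−0.61 ± 0.09, adjusted p = 0.00521) and Csf2rb2 (−0.56 ± 0.11, adjusted p = 0.0178) were among them. In RNA-seq at 4 h Kit was at −0.11 ± 0.10 (adjusted p = 0.595) and Csf2rb at −0.03 ± 0.12 (adjusted p = 0.92), and the difference between the assays was not tested. With the replicate block, 2 receptors and ligands were higher and 4 lower in TT-seq, 4 and 1 of the other JAK and STAT genes, 3 and 8 of the adaptors and kinases, 2 and 6 of the negative regulators, and 3 and 5 of the STAT5 targets. Over all genes of that fit 22.7% were higher and 25.3% lower.

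**Figure D5:**
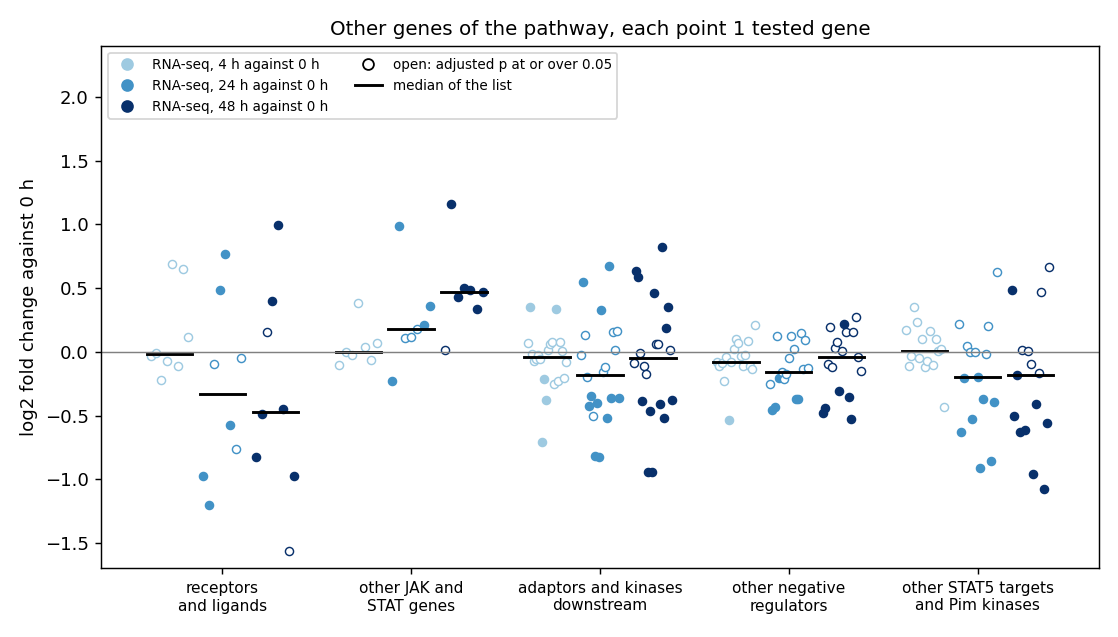
Log2 fold change against 0 h (y axis) of each tested gene of the 5 pathway lists (x axis) at 4, 24 and 48 h of auxin, light to dark blue, where filled points have an adjusted p under 0.05 and black bars are list medians. At 48 h the bar of the other JAK and STAT genes is at 0.47 and that of receptors and ligands at −0.47.

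Genes with a course most like a member's were found over the 12 time-course libraries, by the root mean square difference of centred log2 CPM among 5723 candidates. Npm1, a nucleolar chaperone of ribosome assembly, was nearest to Epor (0.045, where Epor's own root mean square was 0.239), with −0.34 and −0.55 at 24 and 48 h. Glrx3, a glutaredoxin of iron-sulphur handling, followed (0.050). Stat5a was nearest to the motor protein gene Kif5b (0.054, own value 0.270), which had −0.71 and −0.58, and to the splicing factor gene Ptbp1 (0.060). Socs2 was nearest to Herpud2 (0.058, own value 0.200), with 0.35 and 0.52, and to Naxe (0.062). Cish was nearest to Zfr (0.055, own value 0.166), which had −0.29 at 4 h, and then to Qars (0.090). The nearest genes to Socs3 were Ptrhd1 (0.303) and Thap1 (0.331), against an own value of 0.657, and those to Socs1 were Stard8 (0.228) and Taf4 (0.243), against 0.475. The nearest to Jak2 (own value 0.143) were Specc1l (0.066) and Spty2d1 (0.072). Those to Stat5b (own value 0.149) were Vbp1 (0.085) and Atf6 (0.085), and those to Pim1 (own value 0.176) were H3f3b (0.086) and Snx9 (0.089). These likenesses share libraries and scaling and are descriptions only.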

How the data were processed

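For RNA-seq the authors deposited estimated counts by gene symbol, rounded to whole numbers; Salmon 0.13.1, DESeq2 and mm9 are named per the submitters' processing notes. For TT-seq they are read counts by gene, deposited for mouse and for the Drosophila spike-in, with Trim Galore 0.6.10, STAR, SAMtools, deepTools, mm9 and dm6 named per the submitters' processing notes. Transcript set and strand setting: not given in the sources used here. TT-seq reads outside genes were left out (17.2% to 22.2% without a feature and 0.391% to 0.529% ambiguous), and the ribosomal RNA gene Rn45s held 22.2% to 38.8% of the rest. The RNA-seq kit selected polyadenylated RNA, per the labels' protocols.

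Each table was fitted on its own with edgeR 4.0.16 in R 4.3.3 (TMM factors, filterByExpr, quasi-likelihood F-tests, all groups in 1 fit, no replicate term). The filter kept 15157, 10892 and 11218 genes in the time series, untreated lines and TT-seq. Benjamini-Hochberg adjustment ran over these genes, with a threshold of 0.05. The standard error is the absolute log2 fold change over the square root of F. The fit was tested on simulated data. Alternatives were DESeq2 1.42.0, no filter, library totals, 2 groups only, a replicate block, each library left out, and in TT-seq spike-in sizes and a fit without Rn45s. Deviations from group means were correlated between libraries to see whether replicate numbers pair: they do in TT-seq, from the data and not the labels, and not in the time series (−0.07 to 0.10 for the same number). No 2 replicates were closer than sampling noise (chi-square per gene of 9.5 to 333, where sampling noise alone gives about 1).

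The members, the pathway and marker lists and the alternatives were chosen with earlier results of these data known. Named are the 9 members, up to 3 genes of each list with the smallest p among those called in a comparison, and the 2 genes nearest in course to each member. The nearest genes were taken from those called in the time course with mean log2 CPM (prior count 2) not under 3, leaving out predicted genes and pseudogenes. Promoters come from RefSeq on GRCm38.p6 and the files use mm9, so the peak and contact lists were not used here. Some genes of the lists are not reported here by name.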

Additional observations from a re-analysis of the deposited data

Results flagged for a closer look

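Of the member effects, 6 differed between successive auxin times by a test of the difference itself (edgeR contrast, adjusted over all genes). From 4 to 24 h these were Epor (−0.30, adjusted p = 0.00131), Stat5a (−0.49, adjusted p = 0.000234) and Socs2 (0.16, adjusted p = 0.0283). From 24 to 48 h they were Epor (−0.26, adjusted p = 0.0184), Socs2 (0.26, adjusted p = 0.012) and Pim1 (0.36, adjusted p = 0.0226). Over all genes 15.9% were called higher and 17.7% lower from 4 to 24 h, and 3.03% and 2.84% from 24 to 48 h. No group of the 3 tables had 4 or more libraries, so single outlying libraries were not tested.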

How the results depend on the processing

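Over 9 comparisons, 855 member values came from an alternative. They kept their side of the threshold in 781 cases, passed newly in 26 and no longer passed in 48 (35 of the 48 with a library left out). None changed sign where it was called. Among the 781, 61 values that were uncalled in both fits changed sign. At 4 h in RNA-seq, the members called lower went from 0 to 2 with DESeq2 and with no filter (Cish and Stat5b) and to 1 with 2 groups only. With library totals the lower members were 1 at 24 h and 2 at 48 h, and the higher members from 4 to 24 h were 3, against 0 there with no filter. From 24 to 48 h with 2 groups only 0 were lower.

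Leaving out a library gave 0 to 1 higher and 0 to 1 lower members at 4 h. It gave 2 higher and 2 to 3 lower at 24 h, and 2 to 3 higher and 3 to 5 lower at 48 h. There were 0 to 2 higher from 4 to 24 h, and 1 to 2 higher and 0 to 1 lower from 24 to 48 h. Calls over all genes in these fits are not given here, so losses particular to the members cannot be told from losses across all genes.

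The replicate block in the time series, whose numbers do not pair the libraries, gave 1 lower member at 4 h (Cish, adjusted p = 0.015), and Cish at 24 h (adjusted p = 0.038) and Jak2 from 24 to 48 h (adjusted p = 0.0182) passed. Stat5b at 24 h (adjusted p = 0.056) and Socs1 at 48 h (adjusted p = 0.0563) no longer passed. In TT-seq the block gave 1 higher and 4 lower members, and with spike-in sizes 1 and 1. In the untreated lines the block gave 2 higher members for subline3 against parental cells and 1 against the subline. Calls over all genes moved as follows. In TT-seq 237 higher and 795 lower genes became 2541 and 2833 with the block, 1128 and 2411 with spike-in sizes and block, 77 and 169 with library totals, and 1 and 0 with spike-in sizes. At 4 h in RNA-seq DESeq2 called 1029 lower genes against 627. From 24 to 48 h DESeq2 called 767 higher and 654 lower against 459 and 430, and 2 groups only gave 161 lower. In the untreated lines DESeq2 called 52 and 124, 84 and 46, and 153 and 36, and no filter 7 and 27, 1 and 0, and 28 and 2. With 2 groups only, 3 were higher in subline3 than in the subline, against 9. For other named genes 1176 values stayed, 10 passed newly, 130 no longer passed and 0 reversed. With 2 libraries per line, differences of 0.79 (Cish and Pim1) did not pass without the block, and Socs1 and Socs3 are limited by counts of at most 195 per library. Fits that leave 1 library in a line assume that it varies like the other groups.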
